A study of Sus scrofa with 63 samples.

Results

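The jejunum of purebred Meishan (MS) pig fetuses was compared between days 90 and 110 of gestation. Of the 63 fetuses in the series, 13 belonged to this comparison, 6 at day 90 and 7 at day 110, chosen by their labelled genotype and age alone. The other 50 fetuses were Large White (LW) purebreds and both reciprocal crosses, LWMS and MSLW, at the same ages. RNA of each fetus was labelled with a single dye and hybridised to its own Agilent pig 8×60K microarray. All MS fetuses were males carried by MS sows that had been inseminated with mixed LW and MS semen, so MS and crossbred litter mates shared a uterus, and their genotype was assigned with microsatellite markers. They were taken by caesarean, several per litter with body weights near the litter mean, and the arrays were chosen by RNA quality. The sow of each fetus was not given, so litter mates were treated as independent and the p-values measure the spread between fetuses, not between litters.

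Meishan is a Chinese breed whose newborn piglets survive well, while Large White is a breed selected for lean growth. In the last weeks of gestation the pig jejunum changes from an organ that receives swallowed amniotic fluid into the site of milk digestion. Its enterocytes, the absorptive cells of the villi, carry digestive enzymes on a brush border of microvilli and package fat with apolipoproteins for export. Fetal cortisol rises towards birth and acts, together with thyroid hormone, on the maturation of the gut. The samples were whole tissue, so fewer cells of a type and less RNA per cell cannot be told apart.

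A level is given here as log2 of the background-corrected spot signal minus the 75th percentile of the same array, so that 0 is that percentile and negative values lie under it. Levels of different probes cannot be set against each other, and differences are day 110 minus day 90. Of 60305 probes, 40515 passed the filter on dim spots, and between 63.5% and 75.1% of all probes on the day 90 arrays and between 59.7% and 71.1% on the day 110 arrays were well above background. Genes that define the enterocyte, such as FABP2 (a fatty acid binding protein of its cytoplasm), APOA4 (an apolipoprotein of milk fat export) and VIL1 (the actin bundler villin), were above background in all 13 MS fetuses. The spread between fetuses limits what can be seen. In simulated data of the same size, 40% of changes of 1 log2 unit and 92% of changes of 2 units were recovered. That simulation changed 200 probes and used independent noise, with no litter or slide effect and no outlying fetus. Its rates therefore cannot be taken as those of the real data.

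Fetus 632, labelled MS day 110, stood apart from its group. An age score was made from the 2600 probes that rose and the 3199 that fell between the ages in the other 3 genotypes, a choice that used no MS fetus. The score ranged from -0.355 to 0.138 in MS day 90 fetuses (median -0.07) and from 1.369 to 1.856 in 6 of the MS day 110 fetuses. In fetus 632 it was 0.188, just above the MS day 90 range and far below its own group. Its array had 61.3% of probes above background, inside the range of its group, but its array weight, limma's estimate of how closely an array follows its group, was 0.145, the lowest of the 63 arrays (the next was 0.212). The fetus was kept under its label in all main values, and values without it are given beside the results that rest on it.

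**Figure D1:**
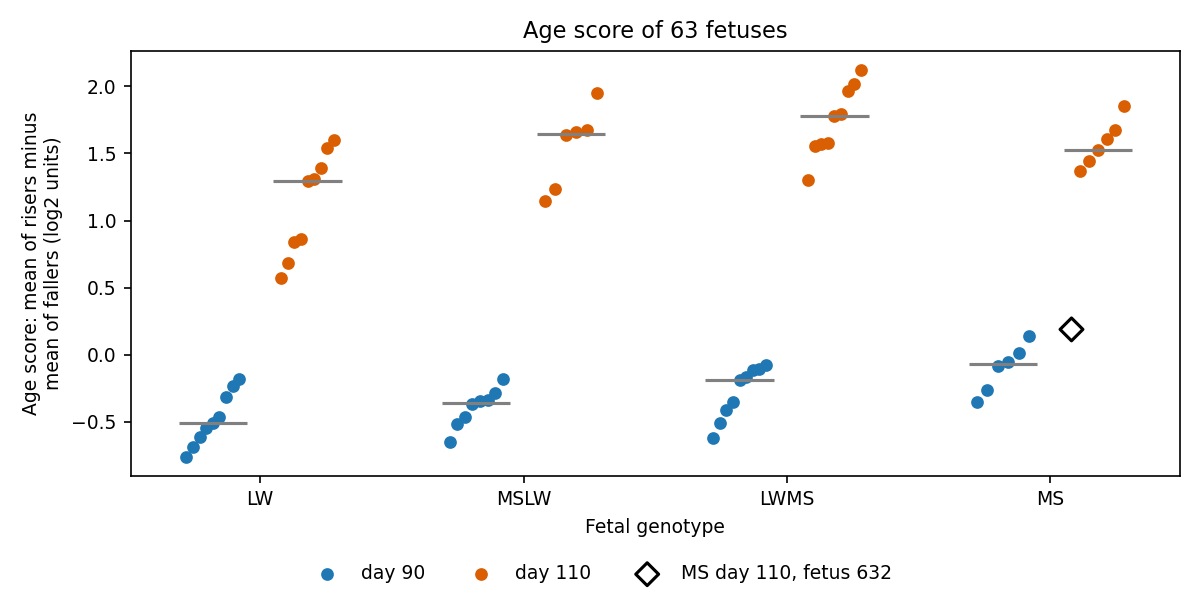
Age score of each of the 63 fetuses (y axis, mean of the risers minus mean of the fallers, log2 units) by genotype (x axis), with days 90 and 110 in different colours and grey lines at the group medians. The MS day 110 fetuses sit between 1.369 and 1.856, except fetus 632 (open diamond) at 0.188.

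Of the 40515 probes tested, 1265 (3.12%) changed between days 90 and 110 in MS, with an adjusted p no higher than 0.01 and a difference of 0.5 log2 units or more (limma, Benjamini-Hochberg). Of these, 655 (1.62%) were higher and 610 (1.51%) lower at day 110, and the median size of a change was 1.18 log2 units. The median difference over all probes was -0.03, and with each array centred on its median in place of its 75th percentile it was 0.10 and the calls split into 639 higher and 285 lower. The lowest value of 1 age lay above the highest of the other in 889 probes (2.19%), of which 597 were also among the changed probes. The direction was the same on all 5 slides that held an MS fetus of each age for 1134 of the 1256 changed probes measured on all 5, and 1127 probes changed in a fit with slide as a block. Leaving out fetus 632 gave 1423 changed probes, 757 higher and 666 lower, of which 984 were among the 1265. With the 13 MS fetuses fitted alone, so that no other genotype lent its estimate of the spread, 304 probes changed, 148 higher and 156 lower.

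Probes named by the array's own annotation or by RefSeq covered 9412 genes, each followed through its brightest probe, the one with the highest mean over all 63 arrays. Of these genes 307 changed (3.26%), 147 being higher (1.56%) and 160 lower (1.7%), and the median difference over all of them was -0.04. These shares are the background for the gene lists below. In the age axis of the other genotypes, 970 of the 1265 changed MS probes (76.7%) were also called in the same direction, and none in the opposite one. Over all 40515 probes that axis held 2600 risers and 3199 fallers. Of these, 17.5% and 16.1% were called in MS, and 92% and 95% had the same sign in MS.

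Of the 76 genes called among those picked for description, 43 no longer passed with the MS fetuses fitted alone (adjusted p from 0.0103 to 0.26) and 17 did not with median centring (adjusted p up to 0.129). Losses with MS alone included the rises of TMPRSS15 (0.0271), FABP1 (0.0703), REG3G (0.138) and LYZ (0.213) and the falls of RBP4 (0.0138), AFP (0.0229), TF (0.0413) and CA4 (0.0549), all as adjusted p and each described below. G6PC, DMBT1, GDA, HMGA2, KHK, PDK4, FKBP5, KLF9, CD163 and CYP11A1 passed under both.

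The genes described first are those with the largest changes among called genes whose ages did not overlap. No overlap was a condition of that choice, so it is not evidence for these genes. The largest such rise was that of G6PC, the glucose-6-phosphatase that releases free glucose in the last step of gluconeogenesis. Its level ran from -5.80 through a median of -4.69 to -3.38 at day 90 and from -1.82 through 1.21 to 2.15 at day 110, a difference of 5.36 ± 0.55 (standard error) or 41.1-fold (limma, adjusted p = 1.89e-10). Fetus 632 was the lowest of the day 110 values, and 2 further G6PC probes rose by 4.26 and 3.68. PIGR, the receptor that carries polymeric immunoglobulin across the epithelium into the lumen, was next among genes without overlap. PIGR ran from -6.58 through -4.81 to -3.36 at day 90 and from -2.57 through -0.92 to 1.29 at day 110, 4.13 ± 0.83 higher (adjusted p = 0.000586, and 0.0143 with normexp background correction).

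DMBT1, a glycoprotein of mucosal secretions that binds bacteria, was already above the 75th percentile at day 90, with values from 1.58 through 2.24 to 2.69. At day 110 it ran from 4.96 through 5.85 to 7.87, a rise of 3.90 ± 0.43 (14.9-fold, adjusted p = 2.7e-09), and fetus 632 had the highest value. CCL28, the chemokine that attracts antibody-secreting cells to mucosae, was above background in 1 of 6 fetuses at day 90 and 6 of 7 at day 110 and rose by 3.19 ± 0.68 (adjusted p = 0.00126, and 0.0369 with normexp). CCL26, a chemokine for eosinophils, rose by 2.55 ± 0.50 (adjusted p = 0.00045). Both chemokines were picked with no overlap between the ages as a condition.

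Other leading risers belonged to metabolism and transport. DPEP1, a membrane dipeptidase, rose by 3.54 ± 0.64 (adjusted p = 0.000123), from a median of -4.50 to one of -0.83. SLC11A2, the transporter that brings iron into the enterocyte, ran from 1.89 through 2.20 to 2.60 at day 90 and from 3.49 through 4.20 to 7.66 at day 110, a rise of 2.60 ± 0.56 (adjusted p = 0.00145), with 1 day 90 spot left out as an outlier on its array. Of its 3 probes 1 was called, and that call ended with the MS fetuses alone (adjusted p = 0.0549). GDA, the guanine deaminase of purine breakdown, C15orf48, a small mitochondrial protein, and FAM107A, a protein of the actin cytoskeleton, rose by 3.04, 2.27 and 2.24, and CDKN2B, an inhibitor of cell cycle kinases, by 2.15, with adjusted p from 7.1e-08 to 0.00141. MLPH, an adaptor that ties vesicles to myosin, was 2.21 higher (adjusted p = 0.0063, from 5 day 90 fetuses) and lost its call when any of 8 fetuses was left out, with adjusted p up to 0.0246.

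Among falling genes whose ages did not overlap, each read through its brightest probe, the largest difference belonged to AFP, alpha-fetoprotein, a plasma protein of the fetus. AFP ran from 0.96 through 1.64 to 1.74 at day 90 and from -6.47 through -2.64 to 0.56 at day 110, where fetus 632 was lowest. It fell by 4.07 ± 0.68 on the log2 scale (16.8-fold, adjusted p = 3.21e-05), and by 3.42 without fetus 632 (10.7-fold, adjusted p = 0.000141). RBP4, which carries retinol in plasma, went from a range of 2.41 to 4.80 (median 3.45) to one of -2.11 to 2.14 (median 0.17), falling by 3.31 ± 0.62 (adjusted p = 0.000219), and all 4 of its probes were lower. Day 90 fetuses were nearly alike in AFP, whereas day 110 fetuses were spread over several log2 units in both genes.

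HMGA2, a chromatin protein of embryonic tissues, was narrowly spread at both ages. Its values ran from -0.16 through 0.07 to 0.45 at day 90 and from -3.49 through -2.21 to -1.92 at day 110, and it fell by 2.52 ± 0.25 on the log2 scale (5.72-fold, adjusted p = 7.19e-11). H19, an imprinted noncoding RNA of fetal growth, fell by 3.05 ± 0.72 (adjusted p = 0.00379), and lost its call without any 1 of 3 fetuses (without fetus 632, 2.62 lower, adjusted p = 0.0148). HSPB3, a small heat shock protein, PRND, a relative of the prion protein, and TNFSF15, a cytokine of the tumour necrosis factor family, fell by 3.30, 3.12 and 2.50, with adjusted p from 3.74e-07 to 6.98e-06. SMTNL2, which resembles smoothelin, fell by 2.79 (adjusted p = 0.00113, and 0.0299 with normexp).

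CRSP-2, a porcine peptide of the calcitonin family, was above background in all 6 fetuses at day 90 and in none of 7 at day 110, which places it at least 3.38-fold lower (adjusted p = 8.48e-06, and 0.0131 with normexp). BPIFB3, a lipid-binding protein of the BPI family, was likewise above background only at day 90 and at least 3.79-fold lower (adjusted p = 0.00632), but 9 of the 13 fetuses each ended that call when left out, with adjusted p up to 0.0242. BHMT, which makes methionine from betaine, was 3.68 lower (adjusted p = 0.00391) and lost its call without any 1 of 5 fetuses, with adjusted p up to 0.0172. The names of GDA, FAM107A, HSPB3, H19, HMGA2 and TNFSF15 came only from the study's list of changed probes, so these genes are not among the 307.

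**Figure D2:**
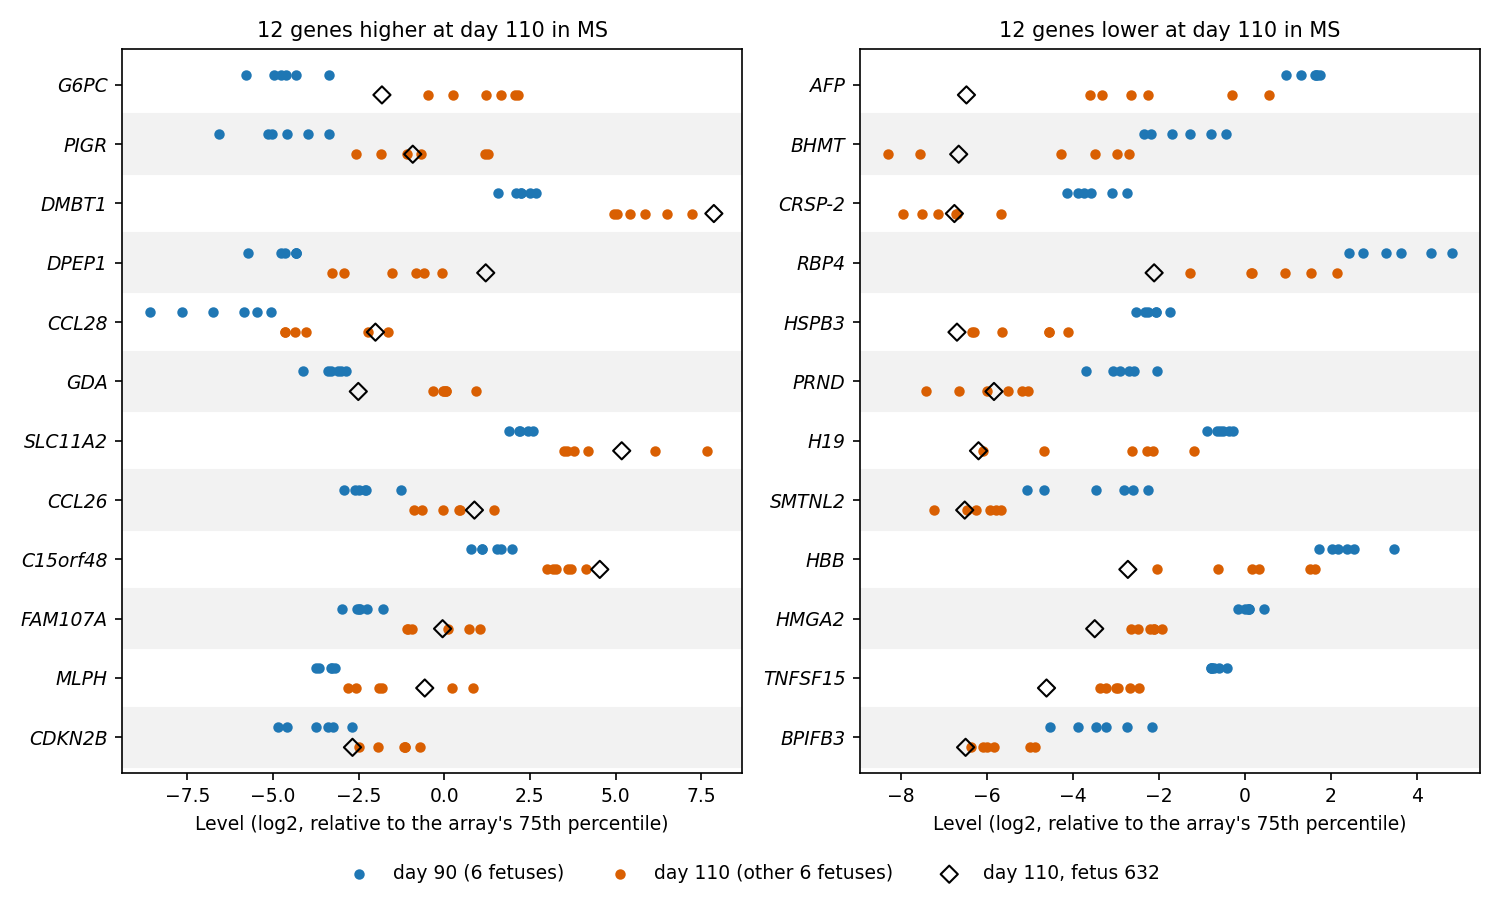
Level of each MS fetus (x axis, log2 relative to the array's 75th percentile) for the 12 genes with the largest rise (left) and the largest fall (right) among called genes whose ages do not overlap, each through its brightest probe. Fetus 632 (open diamond) lies with its age group for DMBT1 and PIGR, and is the day 110 value nearest to day 90 for G6PC, GDA and CDKN2B.

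Enzymes of the brush border cut sugars and peptides at the cell surface. Of 18 such genes tested, 4 were higher at day 110 and none lower, and the median difference was 0.35. TMPRSS15, enteropeptidase, which activates pancreatic trypsinogen, ran from -3.62 through -1.65 to 0.28 at day 90 and from -1.62 through 3.24 to 4.66 at day 110. Its rise was 4.33 ± 0.88 (20.1-fold, adjusted p = 0.000709), the lowest day 110 value was that of fetus 632, and the ages did not overlap without it (rise 5.05). DPP4, which removes dipeptides ending in proline, rose by 1.29 ± 0.25 (adjusted p = 0.000426). The only overlap between the ages came from fetus 632, at 2.18, and without it the rise was 1.47.

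Lactase and sucrase are the sugar-cutting enzymes of the same list. LCT, the lactase that cuts milk sugar, ran from 2.55 through 3.89 to 4.30 at day 90 and from -1.30 through 4.97 to 5.60 at day 110, a difference of 0.16 ± 0.55 (adjusted p = 0.912). Fetus 632 held the value of -1.30, and the other 6 started at 3.41, so that the difference without it was 1.02 (adjusted p = 0.098). SI, sucrase-isomaltase, the enzyme of the weaned intestine, was above background in 1 of 6 fetuses at day 90 and 4 of 7 at day 110. Its difference of 3.05 ± 0.85 missed the threshold (adjusted p = 0.0164). It passed without any 1 of fetuses 532, 623, 627 and 632 (3.39 to 3.65, adjusted p from 0.00456 to 0.00912). Median centring also let it pass (3.17, adjusted p = 0.0094). Fetuses 623, 627 and 632 were alike, at -6.83, -6.34 and -6.56. The list held 5 higher genes and a median of 0.62 without fetus 632. NAALADL1, an aminopeptidase, was 1.53 higher (adjusted p = 0.00579) by its brighter probe and 0.16 lower (adjusted p = 0.792) by the other, and 7 fetuses each ended the call when left out, with adjusted p up to 0.0193.

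The 14 genes of microvillus structure tested held no change (median 0.18). VIL1 differed by 0.07 ± 0.27 (adjusted p = 0.921).

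Fat is taken up as fatty acids and exported as chylomicrons. Of 16 genes for fatty acid and bile acid uptake, 2 were higher and none lower (median 0.05). FABP1, the fatty acid binding protein shared with liver, ran from 4.58 through 5.01 to 5.52 at day 90 and from 4.09 through 7.21 to 7.65 at day 110, and rose by 1.79 ± 0.36 (adjusted p = 0.000505). Fetus 632 held the 4.09, lower than any day 90 fetus, and the other 6 day 110 fetuses lay between 7.05 and 7.65. Without it FABP1 rose by 2.25 (4.76-fold) with no overlap, and all 4 of its probes rose in the main values. SLC27A2, which activates very long fatty acids, was 3.62 ± 0.85 higher (adjusted p = 0.00352, from 5 day 90 fetuses), and 4.80 without fetus 632, which had -6.68 against 0.72 to 2.65 in the others. Each of 3 other fetuses ended its call when left out, with adjusted p up to 0.0119.

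Of 20 apolipoprotein and chylomicron genes, 1 was lower and none higher, with a median of -0.62 against -0.04 over all genes. The lower gene was PLIN2, the coat protein of lipid droplets, which was 0.90 ± 0.22 lower (adjusted p = 0.00458) with no overlap. Any 1 of 4 fetuses left out ended that call, with adjusted p up to 0.0201. APOB, the scaffold of the chylomicron, differed by -1.87 ± 0.58 (adjusted p = 0.0362) and APOA4 by -0.48 ± 0.72 (adjusted p = 0.765). Fetus 632 had 0.30 for APOB and 0.78 for APOA4, while the other day 110 fetuses started at 3.03 and 5.09. Without it the differences were -1.20 and 0.44, neither past the threshold, and the median of the list became 0.11, changing its sign. Fetuses 623 and 627 were low as well, with list means of 1.40 and 1.84, under the day 90 range of 2.45 to 3.25. Fetuses 401, 407, 409 and 871 had 2.72 to 3.50. For APOB, fetuses 623 and 627 had 3.03 and 3.70, against 5.62 to 6.73 at day 90. FABP2 followed the same pattern, with 0.20 in fetus 632, 4.49 and 5.75 in fetuses 623 and 627, and 6.95 to 8.05 in the other day 110 fetuses.

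Of 20 genes for hexose transport and fructose metabolism, 2 were higher and 1 lower (median 0.10). KHK, ketohexokinase, which starts fructose breakdown, ran from -1.75 through -1.57 to -0.73 at day 90 and from -0.62 through 0.81 to 1.27 at day 110. It rose by 2.06 ± 0.28 (4.17-fold, adjusted p = 4.58e-07), with fetus 632 as the lowest value of its group. The probe of 60 bases that measured KHK is shown because the finding rests on this oligo alone, and its whole length is what the RNA bound.
KHK, probe O9619: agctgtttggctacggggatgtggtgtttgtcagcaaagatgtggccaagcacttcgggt

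TXNIP, which restrains glucose uptake, was lower in all 11 of its probes, by 1.03 ± 0.19 in the brightest (adjusted p = 0.000221, and 0.0136 with median centring). At day 90 it ran from 6.24 through 6.48 to 7.14, and the 6 day 110 fetuses other than 632 from 5.08 to 5.94, with 632 at 6.75. SLC5A1, the glucose carrier of the brush border, differed by 0.73 ± 0.43 (adjusted p = 0.342), and by 1.28 without fetus 632 (adjusted p = 0.0162). SLC2A1, the facilitated glucose carrier, was 1.14 higher (adjusted p = 0.00699), lost its call without any 1 of 6 fetuses, and missed it by most without fetus 632 (0.84, adjusted p = 0.0335).

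Of 24 genes of gluconeogenesis and glycolysis, the making and breaking down of glucose, 4 were higher and none lower (median 0.20). G6PC was described above. PDK4, the kinase that turns off pyruvate dehydrogenase and so spares glucose carbon, ran from -1.17 through -0.66 to -0.10 at day 90 and from -0.19 through 2.15 to 3.06 at day 110. It rose by 2.46 ± 0.39 (5.51-fold, adjusted p = 1.55e-05), and 10 of its 11 probes rose. PPARGC1A, the coactivator of mitochondrial and gluconeogenic genes, rose by 1.22 ± 0.21 (adjusted p = 7.72e-05), from a range of 0.34 to 1.21 to one of 1.59 to 2.53. PCK1, which commits carbon to gluconeogenesis, did not overlap between the ages yet missed the threshold (1.47 ± 0.40, adjusted p = 0.015), and passed it without fetus 632 (1.64, adjusted p = 0.00697).

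LDHA, a lactate dehydrogenase subunit, was 0.82 ± 0.25 higher (adjusted p = 0.031), and 1.06 without fetus 632 (adjusted p = 0.00165). HK2, a hexokinase, was 0.87 higher (adjusted p = 0.00729) and lost its call without any 1 of 8 fetuses, with adjusted p up to 0.0375. Without fetus 632 the list held 5 higher genes.

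Of 28 genes for arginine, citrulline and amino acid breakdown, 3 were lower and none higher (median 0.02). OAT, ornithine aminotransferase, which links glutamate to citrulline, was 1.53 lower (adjusted p = 0.00869) with no overlap and in 4 of its 11 probes, but 10 fetuses each ended its call when left out, and without fetus 632 it was 0.92 lower (adjusted p = 0.0293). ARG1, arginase, was 2.45 lower (adjusted p = 0.00656) and was above background in 6 fetuses at day 90 and 3 at day 110. Its call ended without any 1 of 7 fetuses, with adjusted p up to 0.031.

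ASS1, argininosuccinate synthase, ran from 2.30 through 3.55 to 4.57 at day 90 and from 3.31 through 6.72 to 7.81 at day 110. Its difference of 2.23 ± 0.64 missed the threshold (adjusted p = 0.0214). It passed without fetus 632 (2.65, adjusted p = 0.0044) and without fetus 623 (2.63, adjusted p = 0.00615). Fetuses 623, 627 and 632 had 3.42, 4.74 and 3.31, within or near the day 90 range, while the other day 110 fetuses had 6.72 to 7.81. Of 15 peptide and amino acid transporters 1 was lower and none higher (median -0.32, and -0.03 without fetus 632). The lower gene was SLC1A1, a glutamate carrier (1.15 lower, adjusted p = 0.00835), in 1 of its 4 probes, and its call ended without any 1 of 7 fetuses (without fetus 632, adjusted p = 0.0385).

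Of 39 genes for ion and water transport, 1 was higher, namely SLC11A2, and 2 were lower (median 0.07). CA4, a carbonic anhydrase on the cell surface, ran from 4.18 through 4.74 to 5.91 at day 90 and from -0.30 through 1.07 to 6.40 at day 110, a fall of 3.37 ± 0.55 (10.3-fold, adjusted p = 2.13e-05). The 6.40 belonged to fetus 632 and exceeded every day 90 value, while the other 6 stayed between -0.30 and 1.40. Without it CA4 fell by 4.18 (18.1-fold, adjusted p = 8.48e-11). AQP8, a water channel, was 2.85 ± 0.64 lower (adjusted p = 0.00234), with -2.95 in fetus 632, and 2.21 lower without that fetus (adjusted p = 0.012), which ended its call.

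**Figure D3:**
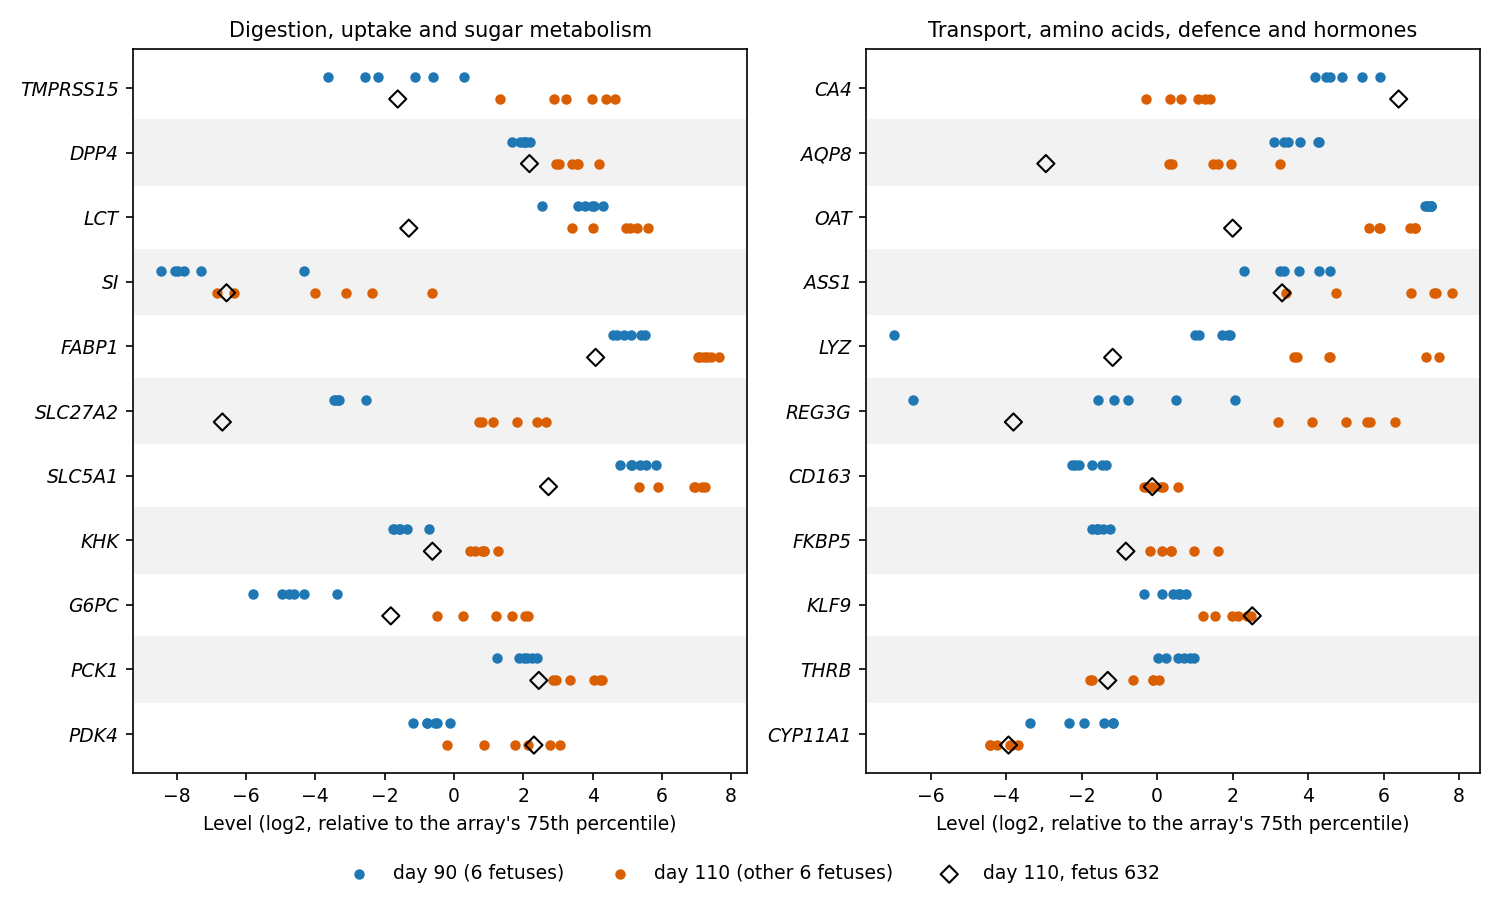
Level of each MS fetus (x axis, log2 relative to the array's 75th percentile) for genes of digestion, uptake and sugar metabolism (left) and of transport, amino acids, defence and hormones (right). Fetus 632 (open diamond) lies with or beyond day 90 for FABP1, LCT and CA4, and with day 110 for CD163, KLF9 and CYP11A1.

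Genes of cells that secrete or renew the epithelium are given beside a call share of 3.26% over all genes. Of 13 goblet cell and mucin genes 1 was higher, namely CLCA1, a secreted protein of mucus. The list had the highest median of all lists (0.69), with 10 of its 13 differences above 0. Its medians in LW, LWMS and MSLW were 1.15, 1.01 and 1.13. The mean level of the list was 2.86 and 2.53 in fetuses 623 and 627. In the other day 110 fetuses it was 0.33 to 1.12, inside the day 90 range of 0.11 to 1.41. CLCA1 rose by 1.34 ± 0.31 (adjusted p = 0.00336), and without fetus 632, at 3.78, it rose by 1.61 with no overlap. Leaving out any 1 of 3 other fetuses ended the call, with adjusted p up to 0.0134, and 3 of its 6 probes were called. None of 19 gut hormone genes (median -0.24) and none of 18 crypt stem cell and Wnt genes (median -0.14) changed.

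GCG, the glucagon precursor of enteroendocrine cells, differed by 0.38 ± 0.87 (adjusted p = 0.857). Its value of 3.69 in fetus 632 was the highest of the group, whose other members ran from -6.00 to -0.09. Of 24 epithelial transcription factors 1 was lower (median -0.00), namely NR5A2, a nuclear receptor of crypts and steroid synthesis. NR5A2 fell by 0.93 ± 0.16 (adjusted p = 8.32e-05) with no overlap, and lost its call with median centring (adjusted p = 0.0286). In 17 genes of BMP and hedgehog signals 1 was higher (median -0.20), namely BMPR1A, a BMP receptor (0.54, adjusted p = 0.00827), which was called in 1 of 2 probes and whose call ended without any 1 of 9 fetuses, with adjusted p up to 0.0318. EPCAM, the epithelial adhesion molecule, was the 1 changed gene of 24 junction genes (median 0.09), and rose by 0.61 ± 0.13 (adjusted p = 0.000874), with 14 of its 18 probes called higher. Median centring and the MS fetuses alone each ended the EPCAM call (adjusted p = 0.0117 and 0.0534).

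Proteins of mucosal defence are secreted into or carried to the lumen. Of 22 such genes 5 were higher and 1 lower (27.3%), the highest share of the 42 lists, although the median was -0.13. REG3G, a lectin that kills Gram-positive bacteria, ran from -6.47 through -0.97 to 2.06 at day 90 and from -3.81 through 5.01 to 6.31 at day 110, and rose by 4.95 ± 1.01 (31-fold, adjusted p = 0.00067). Fetus 632 had the -3.81, and without it the ages did not overlap and the rise was 6.21 (adjusted p = 5.43e-07). A single probe of 60 bases measured REG3G, and its sequence is given because lectins of this family resemble each other.
REG3G, probe A_72_P259402: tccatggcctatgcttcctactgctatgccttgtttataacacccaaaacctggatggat

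LYZ, lysozyme, which cleaves bacterial walls, rose by 4.15 ± 0.97 (17.8-fold, adjusted p = 0.00344), and by 5.06 without fetus 632. The size of the rise also depended on day 90 fetus 524, at -6.97 against a day 90 median of 1.43. Without fetus 524 the rise was 2.74 (adjusted p = 0.0352), which ended the call. Leaving out fetus 623 or fetus 627 ended it too (adjusted p = 0.0148 and 0.0139), and 1 of the 4 LYZ probes was called. PIGR, DMBT1 and CCL28, described above, completed the risers, and in these 3 genes fetus 632 lay within or above the range of its group. The gene that fell was PGLYRP2, an amidase that degrades bacterial peptidoglycan, which is named after its values were seen. Its mean was 0.89 at day 90 and -0.11 at day 110 without fetus 632, which had -2.23.

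Of 29 macrophage genes 4 were higher and none lower (median -0.12). CD163, the scavenger receptor of tissue macrophages, ran from -2.27 through -1.89 to -1.36 at day 90 and from -0.36 through -0.13 to 0.54 at day 110, and rose by 1.83 ± 0.29 (3.57-fold, adjusted p = 1.33e-05), with 3 of its 5 probes called. VSIG4, a complement receptor of resident macrophages, rose by 1.47 ± 0.21 (adjusted p = 1.78e-06), with 4 of 5 probes called. Neither overlapped between the ages, and fetus 632 had -0.13 and -0.67, both with its group. LYZ and LGALS3, galectin-3, were the other risers, both of which are also made by other cells. LGALS3 was 1.34 higher (adjusted p = 0.00286), and 1.16 without fetus 632 (adjusted p = 0.0113), which ended its call, as did leaving out fetus 826. CD14, the co-receptor for bacterial lipopolysaccharide, differed by 0.59 ± 0.22 (adjusted p = 0.0838).

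None of 25 lymphocyte and mast cell genes (median -0.22) and none of 25 genes of the major histocompatibility complex and antigen presentation (median -0.22) changed. Of 29 interferon response genes 1 was lower (median -0.31), namely IRF7, a transcription factor of that response. IRF7 was 0.88 ± 0.22 lower (adjusted p = 0.00627) with no overlap and in 1 of its 3 probes, and its call ended without any 1 of 6 fetuses, with adjusted p up to 0.0236. The mean level of the list was -1.06 in fetus 632 and -0.08 to 0.22 in the other day 110 fetuses, and its median difference was -0.13 without that fetus. Of 24 complement genes 1 was higher (median 0.22), namely C7, a part of the membrane attack complex, which rose by 1.82 ± 0.35 (adjusted p = 0.000358). Without fetus 632 the complement list held 4 higher genes.

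Plasma proteins are made mainly by the fetal liver and yolk sac and also by the fetal gut. Of 21 such genes 3 were lower and 1 higher (median -0.40), the lower ones being AFP, RBP4 and TF. TF, transferrin, the iron carrier of plasma, ran from 0.60 through 1.65 to 2.50 at day 90 and from -4.34 through -0.96 to 0.86 at day 110, and fell by 2.92 ± 0.50 (7.55-fold, adjusted p = 4.52e-05). Of its 5 probes 4 were lower, and another was 0.80 higher (adjusted p = 0.353). ITIH3, a chain of a plasma proteinase inhibitor that binds hyaluronan, rose by 1.20 ± 0.24 (adjusted p = 0.000703) in 1 of its 2 probes. ALB, albumin, differed by -0.30 ± 0.44 (adjusted p = 0.759) and was above background in 5 of 6 and 2 of 7 fetuses.

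Of 13 red blood cell genes 2 were lower and none higher, with a median of -0.77. HBB, the beta chain of haemoglobin, ran from 1.73 through 2.27 to 3.46 at day 90 and from -2.72 through 0.17 to 1.63 at day 110, 2.63 ± 0.61 lower (adjusted p = 0.00326). Its call ended without any 1 of 3 fetuses (without fetus 632, 2.22 lower, adjusted p = 0.0138). AHSP, the chaperone of alpha haemoglobin, was 2.27 ± 0.50 lower (adjusted p = 0.00168), and its call ended without fetus 827 (adjusted p = 0.0131). The mean level of the 13 genes ran from -1.03 to 0.11 at day 90 and from -2.31 to -1.28 at day 110, so the ages did not overlap. Whether the amount of blood in the samples set these levels, or had a part in the falls of AFP, RBP4 and TF, was not tested.

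**Figure D4:**
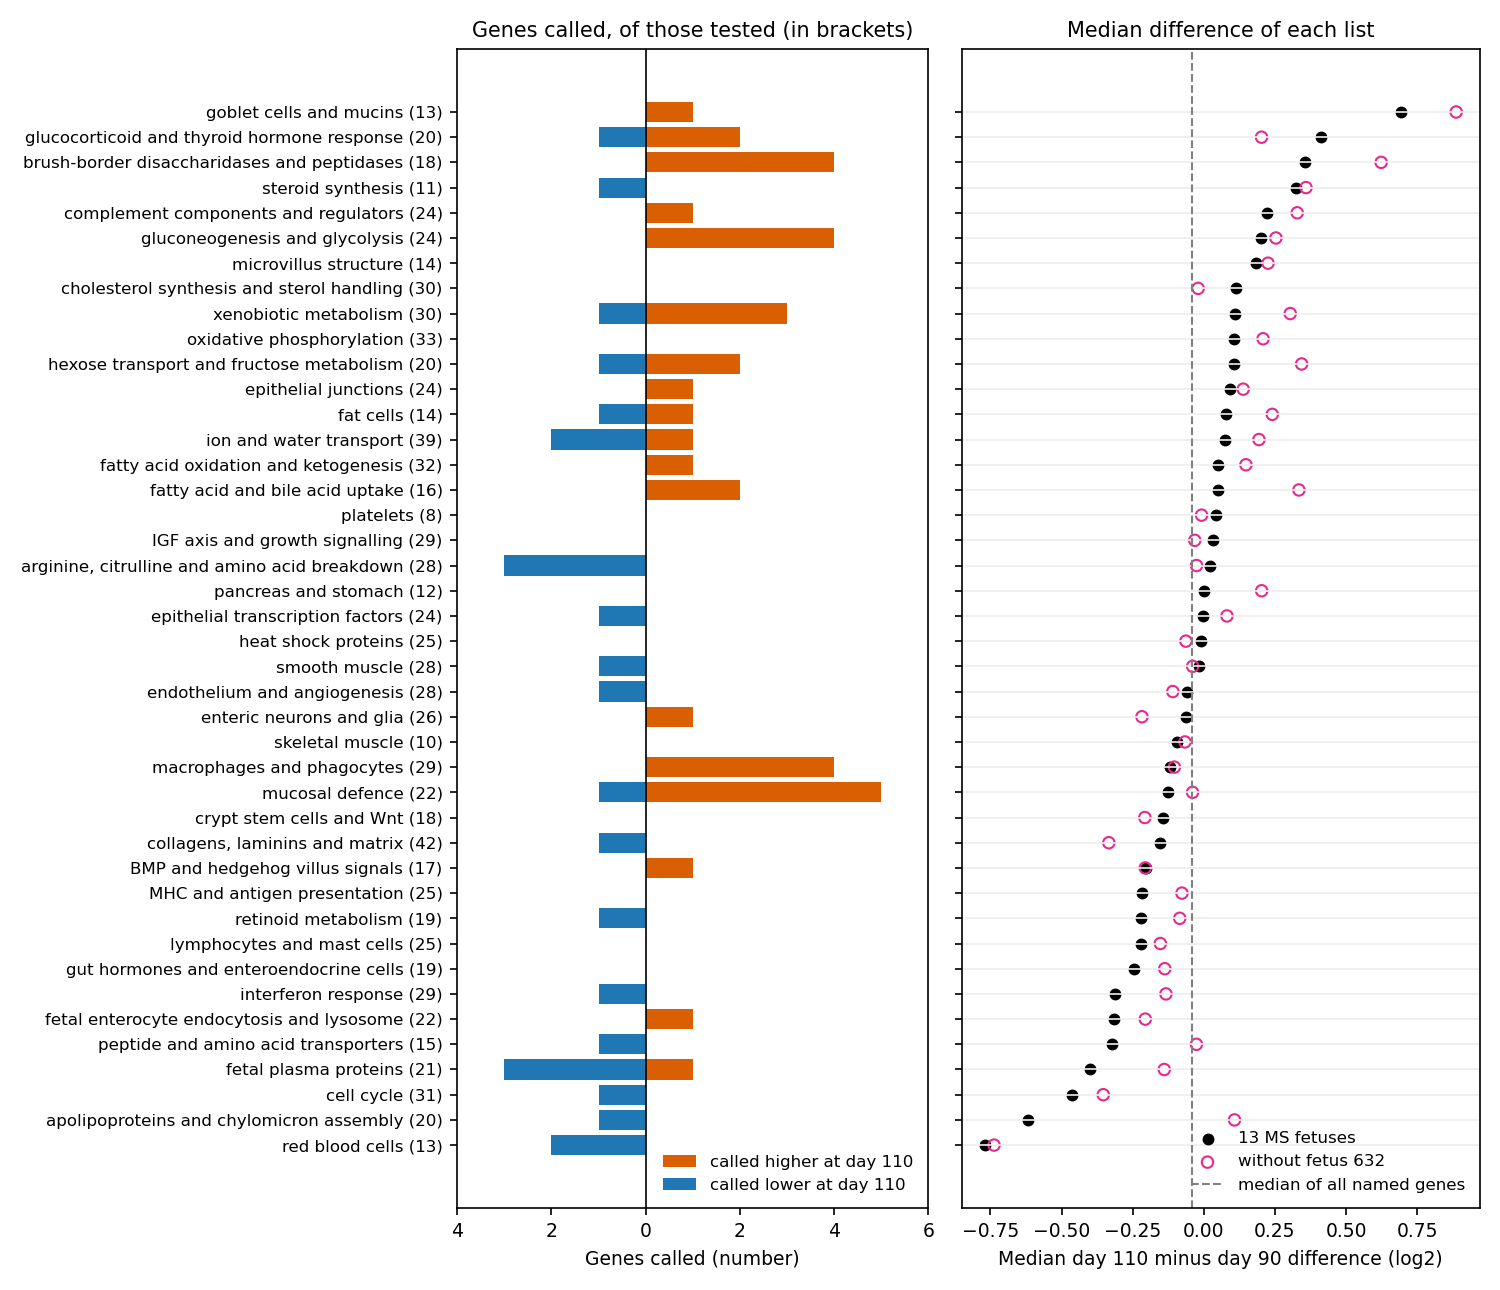
Number of genes called higher or lower at day 110 in each gene list (left, genes tested in brackets) and the median day 110 minus day 90 difference of each list (right, log2), with all 13 MS fetuses (filled) and without fetus 632 (open), beside the median of all named genes (dashed, -0.04). The largest shift on leaving out that fetus is in the apolipoprotein list, from -0.62 to 0.11.

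The response to cortisol and thyroid hormone was read through 20 genes, of which 2 were higher and 1 lower (median 0.41). FKBP5, a chaperone of steroid receptors that cortisol induces, ran from -1.74 through -1.59 to -1.26 at day 90 and from -0.83 through 0.37 to 1.61 at day 110. It rose by 1.88 ± 0.27 (3.69-fold, adjusted p = 1.75e-06), in all 5 of its probes. KLF9, a transcription factor that both hormones induce, rose by 1.69 ± 0.27 (adjusted p = 1.76e-05), from a range of -0.34 to 0.76 to one of 1.22 to 2.52, and 8 of its 11 probes rose. Neither gene overlapped between the ages, while NR3C1, the glucocorticoid receptor itself, differed by -0.05 ± 0.15 (adjusted p = 0.896).

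THRB, a thyroid hormone receptor, was 1.35 ± 0.33 lower (adjusted p = 0.00582) by its brightest probe, and 2 of its 3 probes were called lower. Any 1 of 7 fetuses left out ended the call of the brightest (without fetus 632, 1.27 lower, adjusted p = 0.0134). DIO1, the deiodinase that activates thyroid hormone, ran from -2.23 through -1.23 to -0.13 at day 90 and from -6.42 through 1.28 to 2.40 at day 110, a difference of 1.31 ± 0.72 (adjusted p = 0.305). Fetus 632 had the -6.42, the other 6 started at -0.97, and without it DIO1 was 2.39 higher (adjusted p = 0.00194).

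Of 11 steroid synthesis genes 1 was lower (median 0.32), and that was CYP11A1, the enzyme that cuts the side chain of cholesterol to begin steroid synthesis. Its 5 probes were all lower at day 110, but by very different amounts. The probe used for the gene, brightest on average over all 63 arrays but not over the day 90 MS arrays, ran from -3.36 through -1.68 to -1.17 at day 90 and from -4.44 through -3.94 to -3.70 at day 110 and fell by 2.17 ± 0.35 (4.50-fold, adjusted p = 2.05e-05). In 3 others no day 110 fetus was above background, against all 6 day 90 fetuses, which gave falls of at least 37-fold, at least 37.6-fold and at least 153-fold. Here fetus 632 sat at -3.94 in the probe used, the middle of its group, and the fall without it was 2.19. Both probes below have 60 bases and share no run longer than 6, and they are shown because the size of the fall depended on which of them was read.
CYP11A1, probe A_72_P545357 (4.50-fold lower): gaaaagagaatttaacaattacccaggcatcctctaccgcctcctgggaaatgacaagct
CYP11A1, probe A_72_P381703 (at least 37.6-fold lower): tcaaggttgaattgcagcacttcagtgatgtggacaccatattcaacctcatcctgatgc

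Growth signalling and the cell cycle were read through separate lists. None of 29 genes of the IGF axis and growth signalling changed (median 0.03), although IGF2, the fetal growth factor, was 1.31 ± 0.36 lower without passing the threshold (adjusted p = 0.0165). Of 31 cell cycle genes 1 was lower (3.2%, near the 3.26% of all genes). The list median was -0.46 against -0.04 over all genes, and 3 of the 31 had a difference above 0. That gene was MCM2, of the DNA replication helicase, 0.81 lower (adjusted p = 0.0074), whose call ended without any 1 of 9 fetuses (without fetus 632, adjusted p = 0.032). Some further genes were followed because the study's text discusses them. The study picked them from these arrays, so their changes are not independent evidence. Among them were SDCBP2, a syntenin scaffold protein, and GAL3ST1, which sulphates membrane glycolipids. SDCBP2 rose by 2.14 ± 0.34 (adjusted p = 1.16e-05) and GAL3ST1 by 1.66 ± 0.34 (adjusted p = 0.000673). The differences of IGF1R, MAP2K1, MTOR, SRPX2, CCL2, GBP1, TGFB2 and GPT did not pass the threshold. They lay between -0.77 in CCL2, a monocyte chemokine, and 1.48 in GPT, the alanine aminotransferase, with -0.23 in SRPX2. The study reports rises of SRPX2, IGF1R, MTOR and MAP2K1 and falls of CCL2 and GBP1 with age in MS. For SRPX2, CCL2 and GBP1 the brightest probe read here is not one the study tabulates as changing oppositely in LW and MS. Differences of those tabulated probes are not given here, so these values do not test the study's result for the 3 genes.

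Of 30 genes of xenobiotic metabolism 3 were higher and 1 lower (median 0.11). FMO1, a flavin monooxygenase, rose by 1.53 ± 0.27 (adjusted p = 8.36e-05), and POR, the reductase that feeds electrons to cytochromes P450, by 1.02 ± 0.18 (adjusted p = 0.000114, in 2 of 4 probes), both with no overlap. GSTA4, a glutathione transferase, fell by 0.73 ± 0.16 (adjusted p = 0.00199, and 0.0769 with median centring). NQO1, a quinone reductase, was 0.77 higher (adjusted p = 0.00761) in 1 of its 3 probes and lost its call without any 1 of 9 fetuses, with adjusted p up to 0.0318. CYP3A29, a drug-metabolising cytochrome, was 2.29 ± 0.61 higher and missed the threshold (adjusted p = 0.0115). It had -2.85 in fetus 632 and 0.35 to 2.19 in the other 6, and was 2.88 higher without it (adjusted p = 0.000351).

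Mitochondrial lists had call shares near or under the 3.26% of all genes. None of 33 subunits of oxidative phosphorylation changed (median 0.11), and 25 of the 33 differences were above 0. Of 32 genes of fatty acid oxidation 1 was higher (median 0.05), namely ACOX2, a peroxisomal oxidase of branched lipids and bile acid precursors. ACOX2 rose by 0.96 ± 0.17 (adjusted p = 0.000128), and the list held 4 higher genes without fetus 632. None of 30 genes of cholesterol synthesis, none of 25 heat shock genes and none of 22 genes of endocytosis and lysosomes except PIGR changed, with medians of 0.11, -0.01 and -0.32. RBP4 was the 1 changed gene of 19 in retinoid metabolism (median -0.22).

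The wall of the gut was represented by 4 lists. COL18A1, a basement membrane collagen, fell by 0.98 ± 0.17 (adjusted p = 6.58e-05) as the 1 changed gene of 42 in the matrix list (median -0.15). FHL3, a LIM protein of muscle cells, fell by 0.91 ± 0.12 (adjusted p = 1.14e-07) as the only one of 28 smooth muscle genes (median -0.02). LGI1, a secreted protein of neurons, rose by 0.94 ± 0.16 (adjusted p = 6.58e-05) among 26 genes of enteric neurons and glia (median -0.06). EGFL7, a matrix protein of vessels, fell by 0.60 ± 0.12 (adjusted p = 0.000443) among 28 endothelial genes (median -0.06). None of the 4 overlapped between the ages. The calls of COL18A1 and EGFL7 ended with median centring (adjusted p = 0.0253 and 0.103) and with the MS fetuses alone (0.0103 and 0.0482).

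Markers of tissues that could have been sampled along with the jejunum were followed in the same way. None of 12 pancreas and stomach genes, none of 10 skeletal muscle genes and none of 8 platelet genes changed, with medians of -0.00, -0.10 and 0.04. Of 14 fat cell genes CEBPA, a transcription factor that enterocytes also use, was 0.95 ± 0.20 lower (adjusted p = 0.00105) in 1 of its 4 probes, and its call ended with median centring (adjusted p = 0.0414). LPL, lipoprotein lipase, was 1.07 higher (adjusted p = 0.00836) in 3 of its 4 probes and lost its call without any 1 of 11 fetuses, with adjusted p up to 0.0268. The mean level of the pancreas and stomach list ran from -1.63 to -0.22 at day 90 and from -1.41 to 0.46 at day 110 apart from fetus 632, which had -3.06.

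The profile of fetus 632 differed by function. Over the 916 probes that changed without it and did not overlap between the ages, its median position was 53.5% of the way from the day 90 mean to the day 110 mean. It reached the day 110 range in 428 of them (46.7%) and lay within or beyond the day 90 range in 399 (43.6%). The other 6 day 110 fetuses, each placed on probes chosen without itself, had medians from 79.5% to 93.4% and reached the day 110 range in 72.4% to 79.4%. Its position was 33.7% for rising and 68.7% for falling probes.

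In fetus 632 the mean level of the brush-border list was -1.27, against 0.39 to 2.17 in the other day 110 fetuses and 0.29 to 0.71 at day 90. The apolipoprotein list stood at -0.53, against 1.40 to 3.50 and 2.45 to 3.25, so it lay under both ages. Plasma proteins stood at -3.41 and red blood cell genes at -2.31, each the lowest of the 13 fetuses. The matrix list was at 2.80 and the neuron and glia list at -0.28, each the highest of the 13. On 1387 probes that separated LW from MS, chosen over both ages and each scaled so that the LW mean was 0% and the MS mean 100%, it stood at 59.5%, and the other 12 MS fetuses at 83.9% to 110.6%. What these values came from was not tested.

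**Figure D5:**
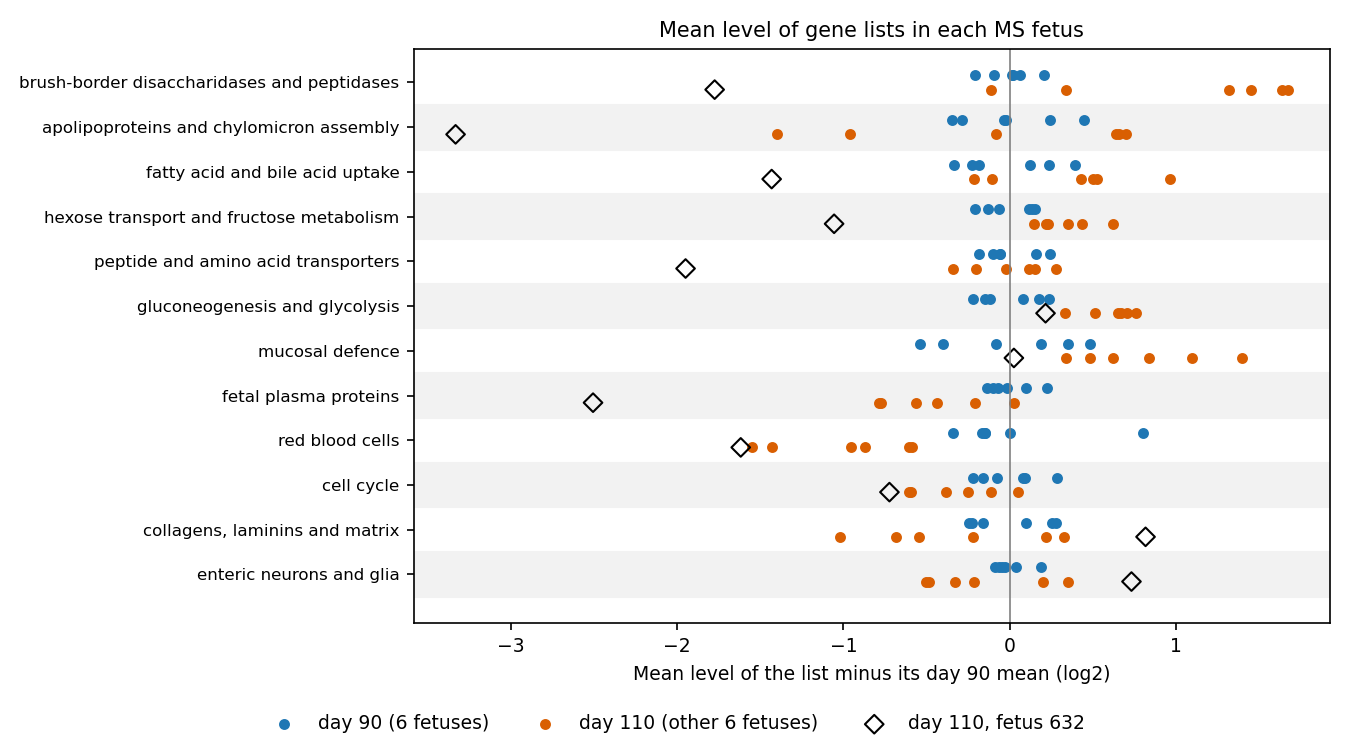
Mean level of 12 gene lists in each MS fetus, as the difference from the day 90 mean of the list (x axis, log2). Fetus 632 (open diamond) is the lowest of the 13 in the brush-border, apolipoprotein and plasma protein lists and the highest in the matrix and neuron lists.

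Whether the change with age in MS differed from that of the other genotypes was tested directly, as the MS difference minus the mean difference of LW, LWMS and MSLW. No probe passed an adjusted p of 0.01 (limma), 7 (0.0173%) passed 0.05, and 2704 (6.67%) had an unadjusted p under 0.05. By the call used within MS, 1928 probes (4.76%) changed in LW, 3996 (9.86%) in LWMS and 2198 (5.43%) in MSLW. MTFP1, a protein of mitochondrial fission, had the smallest p among named genes. Its own change in MS was -0.32 and its changes in LW, LWMS and MSLW were 0.95, 1.52 and 1.12, a difference between them of -1.52 (adjusted p = 0.0468). With 1 fetus left out at a time that adjusted p ran from 0.00794 to 0.158, and 2 to 6 probes passed 0.01 without fetus 401, 407, 632, 826 or 952.

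DIO1 came next, with 1.31 in MS against 5.75 in LW, 4.54 in LWMS and 5.21 in MSLW (difference -3.86, adjusted p = 0.0565), and fetus 632 held its lowest MS value (difference without it -2.78, adjusted p = 0.0627). The remaining genes with the smallest p were NF2, ESYT2, ANXA8, DDX60, ZMYND8, C2orf44, ASPN and LGI1, with adjusted p from 0.0729 to 0.174. C2orf44 was lower in MS at day 110 (-1.14 ± 0.22, adjusted p = 0.000381, and 0.011 with median centring) and differed by 0.31, -0.28 and -0.35 in LW, LWMS and MSLW (difference -1.04, adjusted p = 0.147, and 0.024 without fetus 632). CYP11A1 fell by 2.17 in MS and its differences were -0.11 in LW, -1.25 in LWMS and -0.47 in MSLW (difference -1.56, adjusted p = 0.174). CD163 was 1.83 higher in MS, and 0.45, 1.33 and 0.15 higher in LW, LWMS and MSLW (difference 1.19, adjusted p = 0.248). By the probes read here, neither was shown to change differently in MS. For CYP11A1 that probe had the smallest fall in MS of its 5, and the differences of its other probes in the other genotypes are not given here.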

How the data were processed

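Whole jejunum RNA of 63 fetuses was measured on single-colour Agilent pig 8×60K arrays scanned with Agilent Feature Extraction 10.10.1.1, per the labels. The deposited scanner files give an intensity per spot, which the authors' scanner software had already background-corrected. The authors' deposited log2 value table was used as an alternative. Columns of the authors' own fold changes and p-values were not used, but 1641 probes carry names found only in the study's lists of changed probes, and these stayed out of all gene list counts.

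Control and outlier spots were removed, spots of a probe averaged, and log2 intensity was set against each array's 75th percentile. Probes well above background in at least 75% of the arrays of a group were tested (40515 of 60305). A linear model of 8 group means over all 63 arrays was fitted with limma 3.58.1 in R 4.3.3, and tests were two-sided with Benjamini-Hochberg adjustment over all probes tested. The study's model held the sow as a random effect, which was not possible here. No saturated spots were found (0). Tables and figures were made with Python 3.11.15, pandas 2.3.3 and matplotlib 3.10.9.

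The members, gene lists and tests were chosen with earlier results of these data known. Named genes were the 12 largest rises and falls among called genes whose ages do not overlap, the first 2 tested members and up to 4 called members of each list, a choice of genes from the study's text, and the 10 with the smallest p against the other genotypes. A gene stands for its brightest probe. A group without signal above background was given a bound ("at least N-fold"). The script was tested on simulated data with independent noise: of 50 changed probes per size, 40%, 92%, 100% and 100% were recovered at 1, 2, 3 and 4 log2 units, and 0 unchanged probes were called. This checked the script and not the error rates of the real data. Names came from accessions (9296 probes), the file's gene column (14571) or the study's lists, and 33968 probes had none. Genome positions of probes were not analysed here. Alternatives were another value table, background correction, scaling, filter, slide block, array weights, sample set and threshold, and each MS fetus left out in turn. Some named genes that the rule picks are not reported here.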

Additional observations from a re-analysis of the deposited data

Results flagged for a closer look

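Of 235 groups of values examined in MS (the age score, 12 list means and the genes described), 31 had a fetus far from the other members of its group by Dixon's ratio. Chance alone would mark about 1 in 20. Of the 31, 23 were at fetus 632.

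In fetus 632 the age score was 0.19, and 3 list means stood apart, at 0.16 for hexose transport and fructose metabolism, -0.96 for peptide and amino acid transporters and -3.41 for plasma proteins. Genes of digestion and uptake stood apart at low levels: -1.30 for LCT, 1.23 for VIL1, 4.09 for FABP1, -6.68 for SLC27A2, 2.73 for SLC5A1, -4.02 for SLC1A1 and 3.78 for CLCA1. Genes of metabolism did so too, with -0.62 for KHK, 4.00 for LDHA, -2.51 for GDA, -2.85 for CYP3A29, -0.93 for GAL3ST1 and -6.42 for DIO1. Among falling genes it lay beyond its group at 2.0 for OAT and -4.61 for TNFSF15, and on the side of day 90 at 6.40 for CA4 and -1.51 for C2orf44. The antimicrobial REG3G was at -3.81 and DDX60, a helicase of the antiviral response, at -1.97.

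At day 90 the flagged values were few and shared among 4 fetuses. Fetus 827 had a red blood cell list mean of 0.11, -1.06 for ACOX2 and 0.67 for IGF1R. Fetus 532 had -4.32 for SI, -2.71 for LGI1 and -2.32 for MTFP1. Fetus 826 had -5.73 for DPEP1, and fetus 524 had -6.97 for LYZ. What set these values apart was not tested.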

How the results depend on the processing

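The 1265 changed probes became 1385 with the authors' values, 997 with another background correction (normexp), 1179 with quantile normalization, 924 with median centring, 1020 without the filter, 1288 with a stricter filter and 1127 with slide as a block. Larger shifts came from array weights (4663), from the 13 MS fetuses fitted alone (304, as 148 higher and 156 lower) and from an adjusted p of at most 0.05 (2678). With 1 fetus left out at a time the count ran from 956 to 1423, and no call turned its direction under any of these settings. For the MS change against the other genotypes, 0 probes became 1 with the authors' values and 3 with array weights, and 0 to 6 with 1 fetus left out. At an adjusted p of at most 0.05, 7 became 0 with normexp, 11 with quantile normalization and 32 with array weights, and 0 to 21 with 1 fetus left out. The difference in age score between the ages, 1.48, lay between 1.34 and 1.68. Of 76 named genes called, 52 kept the call without each of the 13 fetuses in turn and 24 lost it at least once. With the MS fetuses alone 43 lost it, with median centring 17, without the filter on dim probes 12, with normexp 11, with slide as a block 11, with array weights 9, with quantile normalization 6 and with the authors' values 3. The other probe of NAALADL1 (-0.16, adjusted p = 0.792) and another TF probe (0.80, adjusted p = 0.353) had the opposite sign to the probe described. No paired analysis was possible because each replicate number belongs to 1 fetus. The causes of these shifts were not tested. The number of fetuses and the spot signal over background limit the precision.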
